A study of Canis lupus familiaris with 34 samples.

Results

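The complement genes *C1R*, *C1S*, *C2*, *C3*, *C4A*, *C6*, *C7*, *CFB* and *CFD*, whose products connective-tissue cells can make, were followed through the mitral valves of 34 Cavalier King Charles Spaniels. They were picked by symbol, and all 9 were listed among 23768 features and were among the 19568 features tested. None of the 9 separated dogs with congestive heart failure from dogs without it after adjustment over all features. The largest log2 fold change was that of *C3*, 0.63, the gene averaging 184 ± 83.7 CPM (counts scaled to library size, SD, n = 15) with heart failure and 124 ± 51.3 (n = 19) without it. Levels were related to markers of other cell types in the samples. *C1R*, *C1S*, *C2*, *CFB* and *C3* rose with macrophage markers whether or not heart muscle was in the fit, and *CFD* rose with heart muscle markers while *C1R*, *C1S*, *C2* and *C7* fell. With adipocyte markers the same 5 genes went the same ways, but none passed once heart muscle was in the fit. Heart muscle was not tested with adipocyte markers in the fit.

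Polyadenylated RNA was sequenced from the mitral valves of privately owned dogs of about 10 years, all of this breed. The 19 dogs named 10y-noCHF (10 females and 9 males) had no heart failure, although by the study's clinical staging nearly all had some degree of myxomatous mitral valve disease (MMVD), so they are not healthy controls. The 15 dogs named 10y-MMVD-CHF (6 females and 9 males) had progressed to congestive heart failure. Each dog gave 1 library, and total counts ran from 46185256 to 82361245 per dog. The valve pieces held very different amounts of heart muscle: the mean log2 CPM of 19 cardiomyocyte markers ran from -0.28 in CAV749 to 10.67 in CAV1047. Connective-tissue markers were high in every dog, with a summed level of 13822 CPM or more for the 12 genes and *LUM*, a collagen-binding proteoglycan, the most abundant of them.

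Complement is a cascade of plasma proteins that coats targets, calls in leukocytes and punctures membranes. In the classical pathway, C1q bound to a target activates the proteases C1r and C1s, and C1s then cuts C4 and C2 into the pieces that form a C3 convertase. The alternative pathway builds its own convertase from C3b and factor B, which is cut by factor D. C6 and C7 join C5b in the first steps of the membrane attack complex. The liver supplies most plasma complement, but fibroblasts, macrophages and fat cells also make components locally, factor D being known in fat as adipsin.

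Liver transcripts were scarce in these samples. Of 9 hepatocyte markers, 5 had fewer than 100 reads over all dogs, and *ALB*, the gene of albumin, averaged 0.078 CPM without and 0.074 CPM with heart failure. *APOA1*, an apolipoprotein gene and the most abundant of the 4 that were tested, averaged 4.23 CPM, whereas *C1S* averaged 542 CPM. The lymphocyte list, led by the T cell gene *CD2* at 3.07 CPM, was also low. Of the endothelial list *PECAM1*, a junction protein, led at 333 CPM. The 6 lymphocyte and 7 endothelial markers held 0 called genes between the groups with edgeR, where 0.118% of all features were called. An unadjusted p below 0.05 was reached by 0 and 1 of them, where 6.31% of all features did so. Bulk RNA cannot say which valve cells carried the complement transcripts, and fewer cells of a type cannot be told apart from less RNA per cell.

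Positions are on canFam4 (UU_Cfam_GSD_1.0). *C1S* (chromosome 27, 8109073 to 8118686, plus strand) and *C1R* (8134102 to 8143493, minus strand) lie 15415 bases apart. *C2* (chromosome 12, 1487961 to 1533006), *CFB* (1533708 to 1539537) and *C4A* (1567920 to 1582076) follow each other on the plus strand, with 701 bases between the first pair and 28382 between the second. *C6* (chromosome 4, 69148212 to 69242746, plus strand) and *C7* (69371403 to 69426824, minus strand) are 128656 bases apart. *C3* (53965307 to 53998426, plus strand) and *CFD* (58265097 to 58266649, minus strand) share chromosome 20 at a distance of 4266670 bases. Each of the 9 was counted on the alignment of the human gene, exons and introns together and without regard to strand.

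Reads in shared stretches went to every feature there, so some of the measurements are uncertain. *C1RL* covers 40.9% of the *C1R* feature. A feature named *GRIN3B* covers all of *CFD*, one named *HSPA1B* covers all of *C2* and *CFB*, and a small feature on the other strand, *ZBTB12*, covers 5.56% of *C2*. *C4A* had counts identical to those of *C4B*, *C4B_2* and *LOC110384692* in every dog, so it is 1 measurement that cannot be divided among C4 copies. No other feature overlapped *C1S*, *C3*, *C6* or *C7*.

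Levels between genes were compared per kilobase of gene span. *C1S* stood highest at 56.4 ± 14.7 CPM per kb (SD, n = 34 dogs), followed by *C1R* at 51.0 ± 13.6, and *C1S* was the higher of this pair in 27 of 34 dogs. *C4A* came next at 19.9 ± 4.49 and was below *C1R* and above *C7* in all 34. *C7* had 7.48 ± 2.71 CPM per kb. *CFD* at 5.05 ± 3.45 and *C3* at 4.55 ± 2.21 could not be ranked, since *CFD* was above *C3* in only 15 dogs. *CFB* had 3.68 ± 1.13, *C2* 0.939 ± 0.238 and *C6* 0.555 ± 0.302 CPM per kb. The span includes introns, so genes with long introns such as *C2*, *C6* and *C7* are placed lower than on a scale of transcript length. In CPM, *C7* averaged 415 and *C4A* 281 over all dogs, the reverse of their order per kilobase.

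All 9 genes differed more between dogs than a typical feature did. The SD of log2 CPM over the 34 dogs was 0.27 for the median feature with a mean of at least 1 CPM. It was 0.35 for *C4A*, 0.36 for *C2*, 0.39 for *C1S*, 0.41 for *C1R* and for *CFB*, 0.55 for *C7*, 0.71 for *C3* and for *C6*, and 1.24 for *CFD*. *CFD* thus varied more than 96.7% of those features, *C7* more than 82.6%, *CFB* more than 70.9% and *C4A*, the least variable of the 9, more than 63.5%.

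Among the proteases of the C1 complex, *C1R* ran in 10y-noCHF dogs from 247 CPM in CAV901 through a median of 423 to 641 in CAV1041. In 10y-MMVD-CHF dogs it ran from 329 in CAV1047 through 489 to 748 in CAV1872. The groups overlapped over most of their range: 3 dogs with heart failure lay above every dog without it, and 4 dogs without it lay below every dog with it. The log2 fold change with sex in the fit was 0.18 (SE 0.13, FDR = 0.88 by edgeR's quasi-likelihood test, adjusted over all features as elsewhere). *C1S* ran from 306 through 508 to 795 CPM without heart failure and from 377 through 580 to 799 with it. Its log2 fold change was 0.14 (SE 0.13, FDR = 0.92), and 0.09 without CAV1872. Lowest and highest over all dogs were CAV901 and CAV1872 for both genes.

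The components of the C3 convertases did not share 1 direction. *C3*, on which the pathways converge, ran in 10y-noCHF dogs from 37.97 CPM in CAV901 through a median of 114 to 245 in CAV1041. With heart failure it ran from 77.8 in CAV1876 through 171 to 345 in CAV1872. Of the 15 dogs with heart failure, 4, all of them females, were above every dog without it, and 11 were above the 10y-noCHF median. The highest male had 240 CPM with heart failure and 155 without it. Only 2 of 19 10y-noCHF dogs were above the 10y-MMVD-CHF median. The log2 fold change of *C3* was 0.63 (SE 0.20, 95% interval 0.22 to 1.03), a 1.54-fold higher level, with an unadjusted p of 0.00361 by edgeR over 34 dogs and an FDR of 0.45. DESeq2 gave an FDR of 0.20. After adjustment over all features *C3* was not called.

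*C4A*, which supplies C4b to the classical convertase, was at the same level in both groups. It ran from 155 through 277 to 401 CPM without heart failure and from 171 through 289 to 381 with it, with means of 280 ± 61.2 and 283 ± 68.7. The 95% interval of its log2 fold change, 0.03, ran from -0.19 to 0.26. *C2*, the other part of that convertase, ran from 27.5 through 40.1 to 67.5 CPM without heart failure and from 29.1 through 38.3 to 51.7 with it. The 7 highest values of *C2* were all in 10y-noCHF dogs. The log2 fold change was -0.16 (SE 0.12, FDR = 0.88). *CFB*, encoding factor B, ran from 13.7 through 20.1 to 41.7 CPM and from 12.97 through 19.8 to 27.8 CPM in the same order. Its 5 highest values were again in 10y-noCHF dogs, led by CAV743, and the log2 fold change was -0.17 (SE 0.14, FDR = 0.90). Without CAV743 it was -0.08.

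*CFD*, the protease that activates factor B, had the lowest counts of the 9 and the widest range. Without heart failure it ran from 0.309 CPM (24 counts) in CAV749 through 5.50 to 20.5 CPM (1113 counts) in CAV1731. With heart failure it ran from 1.57 in CAV1519 through 8.78 to 19.1 in CAV373. The log2 fold change was 0.31, with an SE of 0.37 and a 95% interval from -0.45 to 1.07. The FDR was 0.95, and without CAV373 the value was 0.16.

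Of the terminal components, *C7* was the more abundant. It ran from 216 through 320 to 715 CPM in 10y-noCHF dogs and from 153 through 471 to 698 in 10y-MMVD-CHF dogs, with means of 373 ± 155 and 467 ± 131. In 14 of 15 dogs with heart failure *C7* was above the 10y-noCHF median. The 15th dog, CAV1047, had the lowest *C7* of all 34 and the highest heart muscle markers. The log2 fold change was 0.35 (SE 0.17, unadjusted p = 0.0536 by edgeR, FDR = 0.79). With the cardiomyocyte marker mean in the fit it was 0.42 (SE 0.14, FDR = 0.40). *C6* ran from 18.4 through 45.9 to 151 CPM and from 16.4 through 50.7 to 123 CPM, with the maximum in the 10y-noCHF male CAV865. Its log2 fold change of 0.14 (SE 0.24, FDR = 0.96) was 0.34 without CAV865 and -0.05 without CAV1872.

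**Figure D1:**
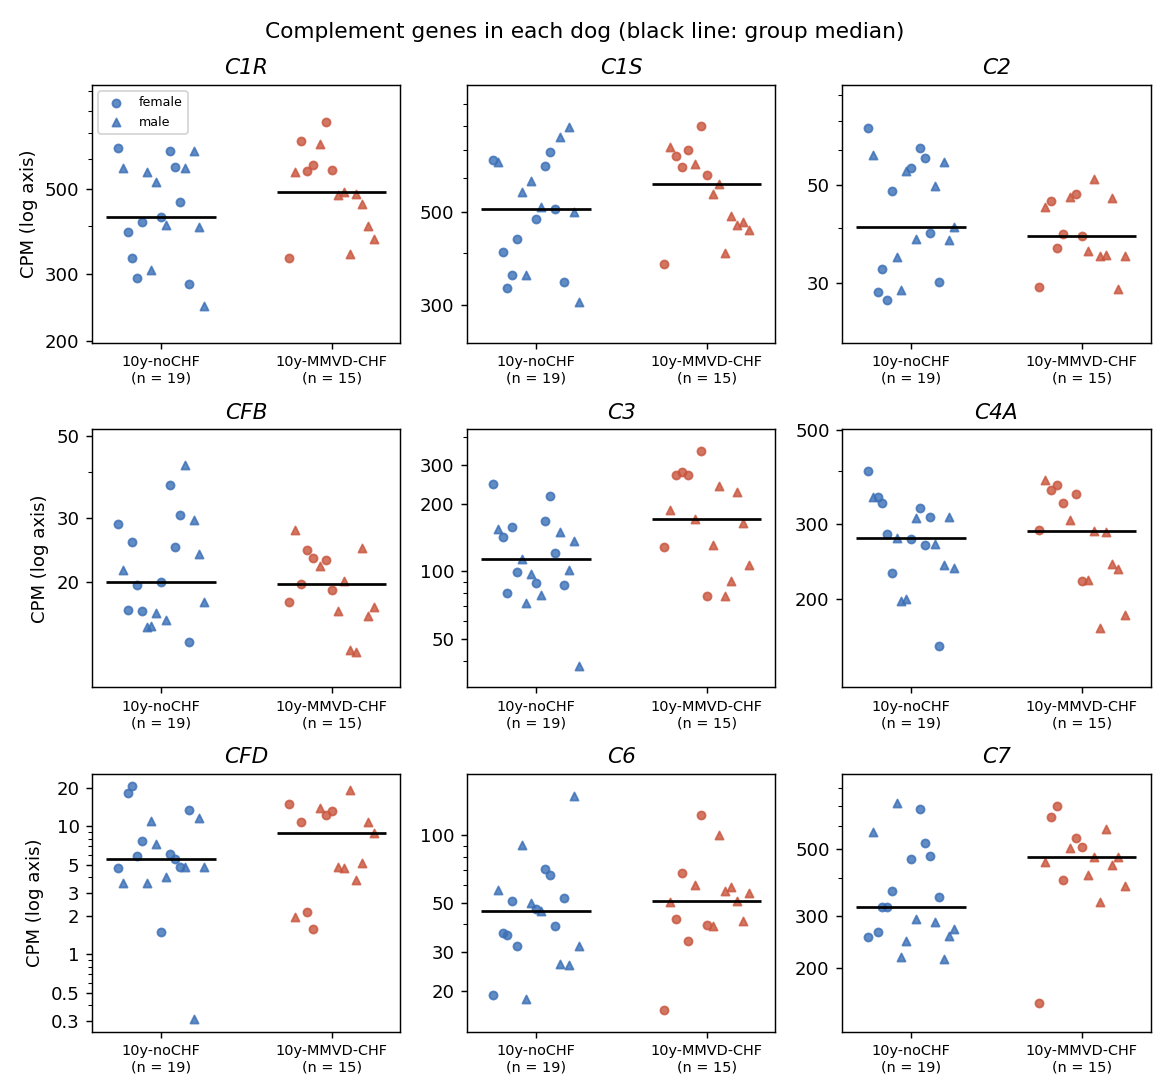
CPM of each complement gene on a log axis in each dog, by group, with circles for females, triangles for males and a black line at the group median. The groups overlap in all 9 genes, 4 females with heart failure lie above all other dogs in *C3*, and *CFD* spreads from 0.309 to 20.5 CPM.

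In all, 0 of 9 genes passed FDR 0.1 in the heart failure comparison, against 23 of 19568 features (0.118%). DESeq2 called 64 features (0.327%) and also 0 of the 9. An unadjusted p below 0.05 was reached by *C3* alone with edgeR, where 6.31% of all features did so, and by *C3* and *C7* with DESeq2. The median log2 fold change of the 9 was 0.14, 7 being above 0, and that of all features was 0.01. Marker means were also set side by side by group, without a test of the means, and the groups overlapped in each. The cardiomyocyte mean was 5.86 ± 3.33 without and 6.24 ± 2.87 log2 CPM with heart failure, and the stromal mean 10.16 ± 0.31 and 10.08 ± 0.32. The adipocyte marker mean was 1.49 ± 1.76 without and 0.53 ± 1.40 log2 CPM with heart failure, and 0 of 6 adipocyte markers were called by edgeR, 1 having an unadjusted p below 0.05. The part of fat in the values of the 9 genes was examined only through the marker fits given further on. The macrophage marker mean was 5.48 ± 0.42 without and 5.63 ± 0.37 log2 CPM with heart failure, and 0 of 10 macrophage markers were called by edgeR, 1 having an unadjusted p below 0.05. *CD14*, the monocyte co-receptor for bacterial lipopolysaccharide, came nearest among these at a log2 fold change of 0.45 (FDR = 0.48 by edgeR). With the macrophage marker mean in the fit, the log2 fold change of *C3* was 0.52 (SE 0.16, FDR = 0.36).

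Sex and heart failure were also set against each other. Between males and females, 0 of 9 genes were called, against 28 of 19568 features (0.143%). DESeq2 called 0 of 9 as well, with 0.189% of all features. *C3* was the 1 gene with an unadjusted p below 0.05 by edgeR (log2 difference of males from females -0.48, SE 0.20, FDR = 0.9997), and with DESeq2 *C4A* joined it. Mean *C3* was 141 ± 57.0 CPM in 10y-noCHF females, 105 ± 38.6 in 10y-noCHF males, 228 ± 102 in 10y-MMVD-CHF females and 155 ± 58.0 in 10y-MMVD-CHF males.

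The heart failure difference in *C3* was 0.69 (SE 0.30) in females and 0.57 (SE 0.28) in males on the log2 scale. *C1S* differed by 0.39 (SE 0.19) in females and by -0.07 (SE 0.17) in males. The interaction term, which tests whether the sexes differ in this respect, called 0 of 9 genes and 0 of 19568 features (0%) with edgeR. DESeq2 called 3 features (0.0153%) and 0 of the 9. Among the 9, none had an unadjusted p below 0.05 for the interaction with either tool. The interaction estimate for *C1S* was -0.46 (SE 0.26, FDR = 0.83).

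**Figure D2:**
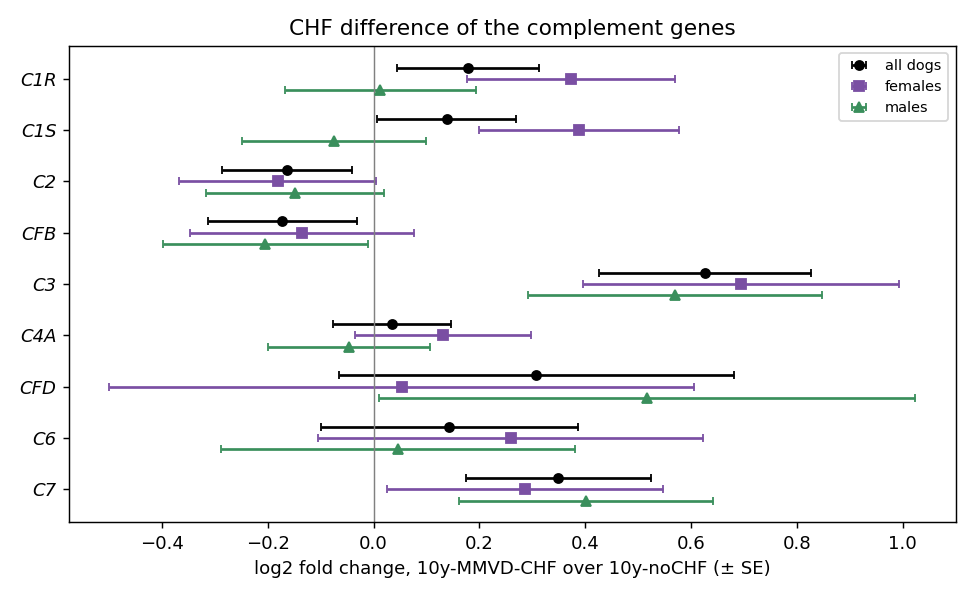
Log2 fold change of 10y-MMVD-CHF over 10y-noCHF (horizontal axis, bars are ± SE) for each complement gene over all dogs, in females and in males. *C3* lies to the right of 0 in all 3 estimates, at 0.63, 0.69 and 0.57, whereas *C1R* and *C1S* lie at 0.37 and 0.39 in females and near 0 in males.

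Heart muscle content was the first of the cell markers tested. Each gene's log2 level was fitted against the cardiomyocyte marker mean (led in abundance by *MYH6*, a myosin heavy chain), with sex and group in the fit. *C7* fell by 0.10 per log2 unit (SE 0.02, FDR = 0.000981 by edgeR), *C1R* by 0.07 (SE 0.02, FDR = 0.00188), *C2* by 0.07 (SE 0.02, FDR = 0.00149) and *C1S* by 0.06 (SE 0.02, FDR = 0.0123). Over the 10.95 log2 units between the poorest and the richest dog these slopes amount to a level 2.15-fold lower for *C7*, 1.75-fold for *C1R*, 1.68-fold for *C2* and 1.60-fold for *C1S*. These are 4 of 9 genes, where 18.3% of all features fell.

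*CFD* went the other way. It rose by 0.18 per log2 unit (SE 0.05, FDR = 0.00516 by edgeR), or 3.94-fold over the range, and 19% of all features rose. The dog with the fewest muscle transcripts, CAV749, had 0.309 CPM of *CFD*, and the dog with the most, CAV1047, had 14.9. Between the same dogs *C1S* went from 795 to 377 CPM. *C3* (-0.05), *CFB* (-0.02), *C4A* (-0.02) and *C6* (-0.04) had slopes that did not pass. The slope of *C6* was -0.10 (FDR = 0.0219) when CAV865 was left out. Leaving out any 1 dog, the 5 genes that passed did so in 34 of 34 fits.

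Macrophage content came next. Against the mean of 10 macrophage markers, of which the growth factor receptor gene *CSF1R* was the most abundant, 6 of 9 genes rose, where 14.5% of all features did. The slopes were 0.96 log2 per log2 unit for *C3* (SE 0.22, FDR = 0.00212 by edgeR), 0.76 for *C1R* (SE 0.12, FDR = 4.02e-05), 0.76 for *C1S* (SE 0.12, FDR = 2.78e-05), 0.66 for *C2* (SE 0.12, FDR = 0.000133), 0.60 for *CFB* (SE 0.15, FDR = 0.00355) and 0.57 for *C7* (SE 0.22, FDR = 0.0541). *C6* had a slope of 0.68 (SE 0.32, FDR = 0.11), *C4A* of 0.19 (FDR = 0.38) and *CFD* of -0.91 (SE 0.43, FDR = 0.13).

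Macrophage and cardiomyocyte markers were themselves related over the 34 dogs, with a Pearson's r of -0.45 given here as a description. Between macrophage and adipocyte markers it was -0.54, and macrophage slopes were not tested with the adipocyte mean in the fit. With the cardiomyocyte mean added to the fit, *C3* (0.93, FDR = 0.0138), *C1S* (0.66, FDR = 0.000451), *CFB* (0.65, FDR = 0.00984), *C1R* (0.61, FDR = 0.000662) and *C2* (0.51, FDR = 0.00373) still rose, 5 of 9 genes against 6.61% of all features. *C7* had a slope of 0.27 (FDR = 0.44) in that fit. Its call without muscle in the fit also depended on CAV1047, without which the slope was 0.38 (FDR = 0.25). *C1R*, *C1S*, *C2*, *CFB* and *C3* passed in 34 of 34 fits with a dog left out, *C6* passed in 6 of them, *CFD* in 5 and *C4A* in 0.

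**Figure D3:**
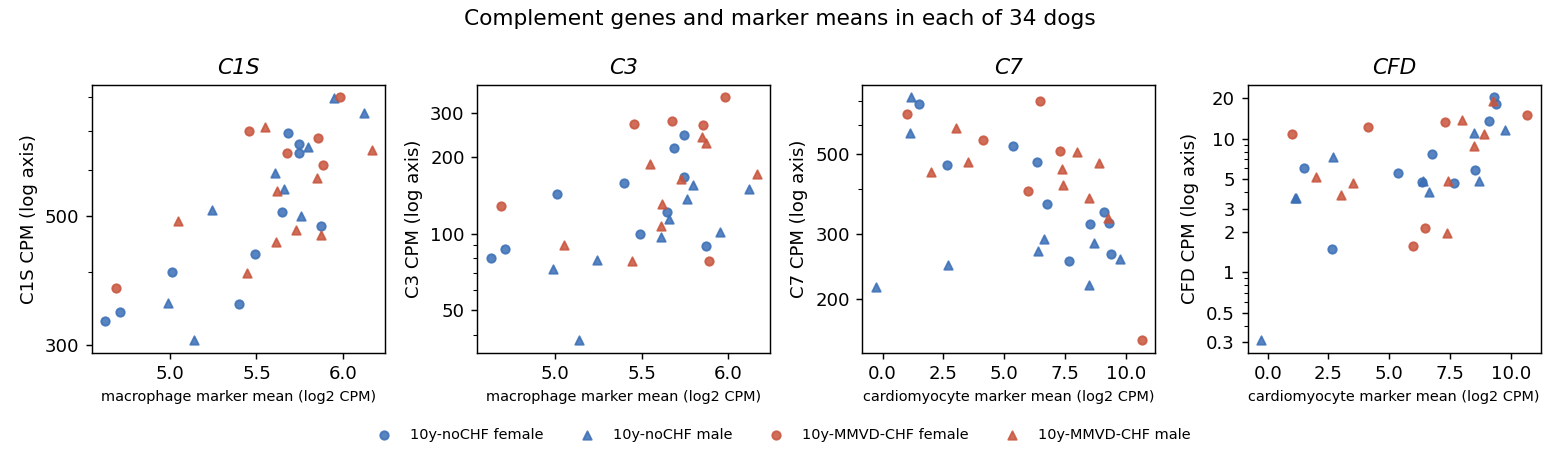
CPM (log axis) of *C1S* and *C3* against the macrophage marker mean, and of *C7* and *CFD* against the cardiomyocyte marker mean, in each of 34 dogs, coloured by group with circles for females and triangles for males. *C1S* runs from 330 CPM at the lowest macrophage mean (CAV1731) to 649 at the highest (CAV1784), *C3* from 80.2 to 171 in the same dogs, *C7* is 216 CPM in the muscle-poorest dog CAV749 but 641, 572 and 715 in the next 3 dogs and 153 in the muscle-richest dog CAV1047, and *CFD* runs from 0.309 CPM at the left end to 14.9 at the right end.

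Fibroblasts are a known source of these components, and stromal markers were tested in the same way. Against the mean of 12 stromal markers, *C1R* (0.78 per log2 unit, SE 0.18, FDR = 0.00317), *C1S* (0.64, SE 0.20), *C2* (0.56, SE 0.19) and *C7* (0.65, SE 0.26) rose, 4 of 9 against 12.2% of all features. *C4A* had a slope of 0.41 at an FDR of 0.10, just above the threshold. In either direction, 27.5% of all features passed without the cardiomyocyte mean in the fit. With that mean in the fit 6.92% of all features passed in either direction, and 0 of 9 genes did with edgeR. *C1R* alone kept an unadjusted p below 0.05 there, at a slope of 0.54 (SE 0.19, FDR = 0.11). The stromal mean spanned only 9.57 to 10.64 log2 CPM, so these slopes rest on a narrow range.

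Adipocyte markers were examined because of *CFD*. The mean of 6 of them, led in abundance by *FABP4*, the fatty acid carrier of fat cells, ran from -1.71 to 3.87 log2 CPM. *CFD* rose by 0.34 per log2 unit (SE 0.11, FDR = 0.0192 by edgeR), as did 17% of all features, while *C7* (-0.17), *C1R* (-0.15), *C1S* (-0.14) and *C2* (-0.09) fell, 4 of 9 against 11.7%. In either direction, 28.7% of all features were called without the cardiomyocyte mean in the fit. With that mean in the fit 0 of 9 were called, and 0.327% of all features were in either direction. *C1R* and *C1S* kept an unadjusted p below 0.05 there. The slope of *CFD* was then 0.19 (SE 0.13, FDR = 0.51). Adipocyte and cardiomyocyte means were themselves related, at a Pearson's r of 0.56 over the dogs. The slopes on cardiomyocyte markers were not tested with the adipocyte mean in the fit. All 6 adipocyte markers had a log2 fold change below 0 with heart failure, from -1.28 to -0.13, and 0 of 6 were called, whereas that of *CFD* was 0.31.

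**Figure D4:**
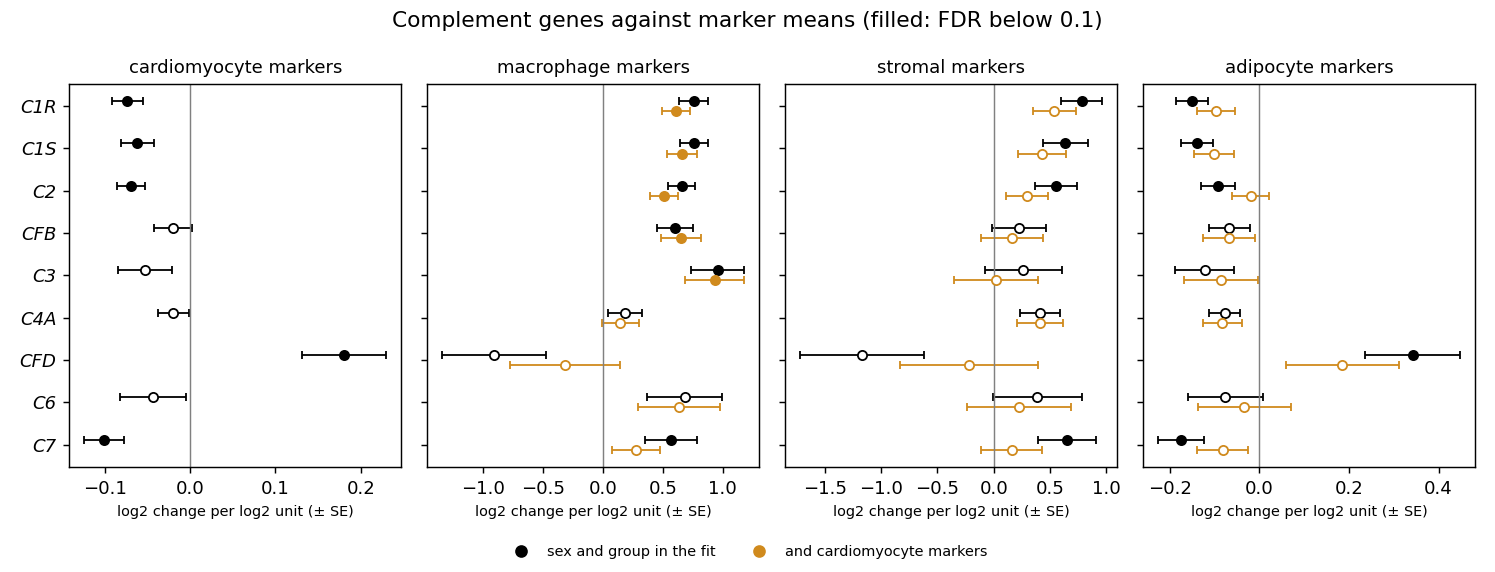
Change in log2 level of each complement gene per log2 unit of 4 marker means (horizontal axes, bars are ± SE), with sex and group in the fit (black) and with the cardiomyocyte mean added (orange). Filled points have an FDR below 0.1, and among the orange points they occur only for *C1R*, *C1S*, *C2*, *CFB* and *C3* against macrophage markers.

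The genes were next compared with each other on log2 CPM after group and sex means were removed. Of 36 pairs, 22 had a Pearson's r with an FDR below 0.1 over the pairs (permutation test, 100000 resamples, two-sided), 18 of them positive and 4 negative, all 4 negative ones involving *CFD*. Related pairs were common in these samples: of all pairs among 16171 features, 31.1% had an r of at least 0.33 in either direction, the smallest value among the 22, and 15.6% had a positive one. Spearman's rho passed in 25 pairs. After regression on the cardiomyocyte mean 15 pairs passed, all positive, with r of 0.38 or more, as 9.01% of all pairs of features had. Of the unregressed pairs 23 passed when, for each pair, the 2 dogs most distant from the first gene's median were left out.

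*C1R* and *C1S* were the closest pair, at r = 0.96 and rho = 0.95 (permutation p = 1e-05, the lowest that 100000 resamples allow, FDR = 0.00012 for both). The value was 0.97 within 10y-noCHF dogs, 0.94 within 10y-MMVD-CHF dogs and 0.95 without CAV748 and CAV901. These genes do not overlap, so no read was counted for both through a shared stretch. *C6* and *C7* formed a second pair at r = 0.61 and rho = 0.60 (permutation FDR = 0.00093 and 0.00096), 0.57 after regression on muscle and 0.67 without CAV865 and CAV1047. Within groups it was 0.56 and 0.68. *C7* also passed with *C1R* (r = 0.47, rho = 0.40, permutation FDR = 0.0109 and 0.0373) and with *C1S* (r = 0.38, rho = 0.34, permutation FDR = 0.0467 and 0.088), and *C6* with *C3* (r = 0.33, rho = 0.32, permutation FDR = 0.0924 and 0.0945). After regression on muscle these were 0.19, 0.12 and 0.27 and did not pass. With *C2*, *CFB* and *C4A* neither passed by Pearson's r.

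*C1R*, *C1S*, *C2*, *CFB*, *C3* and *C4A* formed a block in which 14 of 15 pairs passed, *C2* with *C4A* being the exception (r = 0.32, permutation FDR = 0.11). *C2* and *CFB*, next to each other on chromosome 12, reached r = 0.56 (rho = 0.54, permutation FDR = 0.00173 and 0.00373). That is below the value of *C2* with *C1R* on chromosome 27, which was 0.75 for both r and rho (permutation FDR = 0.00012). *C3* with *C4A* reached r = 0.58 and rho = 0.56, and *C3* with *C1S* r = 0.66 and rho = 0.69. *CFD* was negatively related to *C1S* (r = -0.51, rho = -0.50, permutation FDR = 0.00441 and 0.00839), and after regression on muscle this was -0.32 (permutation FDR = 0.14).

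**Figure D5:**
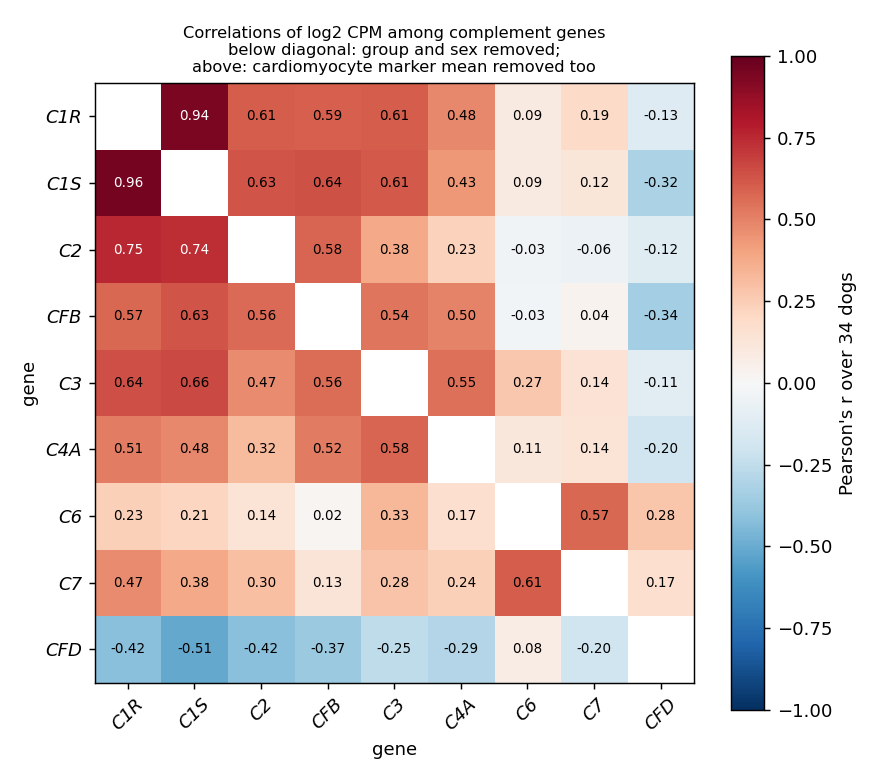
Pearson's r over 34 dogs between the log2 CPM of each pair of complement genes, on a colour scale from -1 to 1. Below the diagonal group and sex means were removed, above it the cardiomyocyte marker mean as well. *C1R* with *C1S* is darkest at 0.96, the block from *C1R* to *C4A* is red on both sides, *C6* pairs with *C7*, and the negative values of *CFD* fade above the diagonal.

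A search over 16171 features with a mean of at least 1 CPM gave those most like each gene by Spearman's rho over 34 dogs. *C1R* had *C1S* (0.95), *LHFPL2* (0.87) and *PYDC1* (0.85). *C1S* had *C1R*, *C1RL* (0.94), the neighbouring protease gene, and *PIK3AP1* (0.86). *C1RL* shares reads with *C1R* through their overlap, so its value may in part repeat that of *C1R*. For *C2* they were *LGALS3* (0.83), which encodes galectin-3 and is abundant in macrophages, *IGSF11* (0.81) and *PGD* (0.81). For *CFB* they were *FCGR1CP* (0.76), *CLEC5A* (0.75), a myeloid lectin receptor, and *FCGR1B* (0.73), both Fc receptor features being near-identical human copies whose counts are uncertain. *C3* was most like *DLA-DQA1* (0.85) and *HLA-DQA1* (0.83), canine and human features for an MHC class II chain that may share reads, and *CD180* (0.83), a receptor of antigen-presenting cells. Such likeness was lower for *C4A*, with *EDC3* (0.70), *ARHGEF2* (0.64) and *TNRC6C* (0.64), for *C7*, with *SFMBT2* (0.70), *ALG11* (0.69) and *SENP5* (0.68), and for *C6*, with *GATA3* (0.64), *FAM78B* (0.63) and *TMEM132C* (0.63). *CFD* was most like *NUDT16L1* (0.83), *ATP5IF1* (0.82), an inhibitor of mitochondrial ATP synthase, and *SULT1A1* (0.81). These lists changed with muscle removed: all 3 features of *CFD* were then others (led by *MIR3610*, 0.82), those of *C2* were *CD68* (0.75), a macrophage marker, *GNG2* and *SMPDL3A*, and the highest value for *C7* was 0.57, with *ALG11*. *C1R* with *C1S* stayed at 0.95 and *C3* with *DLA-DQA1* was 0.86.

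Other genes of the cascade were set beside these. Of 43 further complement genes 39 were listed and 35 tested, among them *C4B*, which is the *C4A* measurement again. None was called in the heart failure comparison by edgeR, where 0.118% of all features were. None had an unadjusted p below 0.05, where 6.31% of all features did, and their median log2 fold change was 0.08. *CR2*, the complement receptor of B cells, had the lowest value at -0.98 (SE 0.62, FDR = 0.85) on a level of 0.204 CPM without and 0.115 with heart failure. *COLEC10*, a lectin pathway collectin, had -0.41, *VTN*, encoding vitronectin, 0.40, and *C4BPB*, a chain of C4b-binding protein, 0.37, all on levels below 2 CPM in both groups.

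Roles were compared per kilobase of feature length. *CLU*, encoding clusterin, which keeps the terminal complex off membranes, led the soluble regulators at 1662 CPM per kb, *C1QA*, a C1q chain made by macrophages, led its subunits at 57.0, and *C1RL* had 11.2. *C5AR1*, which binds C5a, came first among receptors at 7.56 CPM per kb, *CD55*, which shields membranes from convertases, among membrane regulators at 1.86, the protease *MASP1* in the lectin pathway at 0.841 and *C8G* among the other terminal components at 0.603. *CLU* and *C5AR1* were counted on canine features, whose lengths leave introns out. The rest were counted on human alignments, whose lengths include them. *C3AR1*, a receptor on a human alignment, had 56.4 CPM without heart failure, against 14.8 for *C5AR1*, but 7.29 CPM per kb. The first place of *C5AR1* and the size of the lead of *CLU* therefore depend on this difference, and these ranks are uncertain. *C1RL* shares reads with *C1R*, so its level is uncertain too. In CPM, *CLU* stood at 2791 ± 720 without and 2639 ± 526 with heart failure, and *C1QA* at 155 ± 64.5 and 174 ± 38.01. *C9* and *C8B* had fewer than 100 reads over all dogs.

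Against macrophage markers, 16 of these 35 rose, where 14.5% of all features did, 2 fell and 17 did not pass. The 3 C1q chains had slopes from 1.12 to 1.27 log2 per log2 unit, and *C1QA* stood at 1.12 (SE 0.10, FDR = 4.45e-09 by edgeR), above the 0.76 of *C1R* and *C1S*. *CLU* had a slope of 0.55 (SE 0.13, FDR = 0.00209). With the cardiomyocyte mean in the fit 15 of 35 rose, against 6.61% of all features. Both counts include the 3 C1q chains, made by macrophages, and receptor genes of leukocytes such as *C5AR1*, so part of each count was foreseeable. They also include *C1RL*, which shares reads with *C1R*.

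Cytokine-responsive genes, several of which are known inducers or companions of local complement synthesis, were not called either. With edgeR 0 of 22 passed in the heart failure comparison, where 0.118% of all features did. An unadjusted p below 0.05 was reached by 4 of 22, where 6.31% of all features did so. Their log2 fold changes were 0.30 for *IL6ST* (SE 0.09, FDR = 0.40), 0.40 for *VCAM1* (SE 0.19, FDR = 0.78), 0.22 for *IL1R1* (SE 0.10, FDR = 0.78) and -0.28 for *NFKBIA* (SE 0.10, FDR = 0.48). *IL6* had the largest value at 0.56 (SE 0.70, FDR = 0.95), on 0.743 CPM without and 0.832 with heart failure, followed by *PTX3*, a pattern-recognition pentraxin, at -0.50 (SE 0.39, FDR = 0.89). The median of the 22 was 0.03.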

How the data were processed

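The files hold raw counts that the authors deposited, 1 column per dog, made with STAR (canFam4) and featureCounts 2.0.3. Features were canine RefSeq genes plus aligned human RefSeq genes, introns being included for the human ones. Mates were counted singly, overlapping features were all credited and strand was ignored. 1 column without a labelled sample was not used. Features with fewer than 100 counts in total were dropped. edgeR 4.0.16 (TMM, quasi-likelihood, sex and group, Benjamini-Hochberg FDR 0.1 over all features) gave the tests, after the study's model. Alternatives were DESeq2 (1.42.0 here), which the study used, and limma voom (3.58.1), which it did not. The 95% intervals use the t distribution. Counting error is small beside the spread between dogs, *CFD* in CAV749 (24 counts) apart. Log2 CPM used a prior count of 2. Marker means entered as covariates. Scripts were tested on simulated data.

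The members and gene lists were chosen with earlier results of these data known. Named genes were the 9 members, called genes, the 2 highest and 2 lowest other complement genes, the most abundant per kilobase in each role, the 2 cytokine-responsive genes with the largest change, the most abundant of each marker list and the 3 nearest features per member. *C3AR1*, *CD14* and the 4 cytokine-responsive genes with an unadjusted p below 0.05 were named besides. Of the 9 symbols, 8 matched the RefSeq table of the same assembly. No sequences were used.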

Additional observations from a re-analysis of the deposited data

How the results depend on the processing

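With 13 other settings for the heart failure comparison (DESeq2, limma voom, RLE or upper-quartile scaling, no filter, filterByExpr, robust dispersion, FDR 0.05, no sex term, a cardiomyocyte, macrophage or stromal covariate, and without CAV614 and CAV1047) and with each of 34 dogs left out, 0 of 9 genes were called. The setting of FDR 0.05 uses the same fit and could not call a gene that failed at 0.1, so it adds nothing. The log2 fold change of *C3* ran from 0.56 to 0.70 with a dog left out, that of *CFB* from -0.22 to -0.08 and that of *CFD* from 0.16 to 0.41. The estimates that changed sign were near 0: *C4A* was -0.0033 with limma voom and ran from -0.0096 to 0.069 with a dog left out, *C6* ran from -0.046 to 0.34, and the sex difference of *C1S*, 0.0024 in the report's fit, was -0.0024 with DESeq2 and -0.027 with a cardiomyocyte covariate. With that covariate the genes called against stromal markers went from 4 to 0 and against adipocyte markers from 5 to 0. Over all features the calls in either direction fell as well, from 27.5% to 6.92% and from 28.7% to 0.327%. The cause was not tested. Leaving out single dogs in the marker fits was chosen after seeing the data. Exchanging canine for human features could not be applied, since 0 members have both. No paired analysis was possible because replicate numbers only follow sample order. *CFD* had a median of 378 counts per dog and the widest spread between dogs of the 9. The Spearman count of pairs was also chosen after seeing the data.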
